A study of Mus musculus with 36 samples.

Results

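The killer cell lectin-like receptors that natural killer (NK) cells and some CD8 T cells carry, together with Styk1, a kinase gene that lies beside one of them on the chromosome, were followed in OT-I CD8 T cells. The set holds 9 listed genes: Klrg1, Klrk1, Klrc1, Klrd1, Klrb1a, Klra5, Klra3, Klra7 and Styk1. Each was read from the probe sets annotated to its symbol alone, taking the set with the highest mean over all arrays and keeping any other set as a check. This gave 8 measured genes of 18193 genes in all, because the array's only set for Klra3 is annotated to Klra9 as well and cannot be assigned to either gene. Klra5, Klrb1a and Styk1 were chosen by measured values, namely hairpin-specific differences seen in these same arrays, so their differences are given as values without a test, in LacZ cells too, since the same LacZ arrays entered the choice. The other 5 measured genes were tested in every comparison.

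OT-I cells are CD8 T cells with a transgenic receptor for an ovalbumin peptide, and here each population carried 1 kind of short hairpin RNA (shRNA) and had been given to mice with B16 melanoma, a tumor of an established mouse line. The hairpin targets were Ppp2r2d, a regulatory subunit of protein phosphatase 2A, Egr2, a transcription factor induced by the T cell receptor, Ptpn2, a tyrosine phosphatase that restrains cytokine signalling, Arhgap5, Alk, a receptor tyrosine kinase, and, as control, LacZ of bacteria, which mouse cells lack. Each of the 6 transductions has 3 arrays labelled tumor and 3 labelled spleen, which makes 12 groups and 36 arrays, and all groups share the OT-I cells, a transduction and a B16-bearing host. The series asks about genes that regulate how many T cells are found in tumors against spleens. Whether the arrays within a group are different animals is not stated in the labels, and every p here reflects array-to-array spread, which may be technical.

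Killer lectin receptors are type II membrane proteins with a C-type lectin-like domain. In the mouse most of them are encoded in the NK gene complex on chromosome 6, and Styk1 lies on that chromosome too. Inhibitory members carry a motif in their cytoplasmic tail that recruits phosphatases, while activating members signal through adaptor proteins such as Hcst (DAP10) and Tyrobp (DAP12). NK cells use them to read MHC class I and stress ligands. CD8 T cells acquire some of them, among them Klrg1, Klrk1 and the pair Klrc1 and Klrd1, after activation.

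The values are the authors' log2 probe set levels, and array medians lay between -0.50 and -0.23, so a level below about 0 is dim. The tissue labels and the marker genes did not go together. The mean of 5 melanocyte markers lay between -1.68 and -0.31 in the arrays labelled tumor and between 3.39 and 5.22 in those labelled spleen, and the mean of 8 macrophage markers between -2.42 and -0.70 and between 1.29 and 4.10, while 9 T cell markers averaged 5.01 to 6.95 and 5.72 to 6.64. The groups are therefore called by their labels throughout. Every difference between labels takes its sign from the labels as given and would turn if they were exchanged, and the part of these other cells in any result was not tested. In bulk RNA of this kind, fewer cells of a type and less RNA per cell cannot be told apart. Array 1 of the Ptpn2 group labelled tumor stood apart, with a best correlation of 0.891 to any other array against 0.954 to 0.993 for the others. In 3 arrays (LacZ array 2 labelled spleen, Egr2 array 2 and Ptpn2 array 3 labelled tumor) the lowest value was raised most, between -1.45 and -1.38. It was -2.37 to -1.88 in the 3 Alk arrays labelled tumor. With that label it was also -2.775 in Arhgap5 array 2 and -2.97 in Ptpn2 array 1, and it was at most -3.325 in all remaining arrays. Of the 5 targets, Ppp2r2d alone was called against LacZ, in arrays labelled spleen, at -1.37 ± 0.42 (SE, adjusted p = 0.0286).

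**Figure D1:**
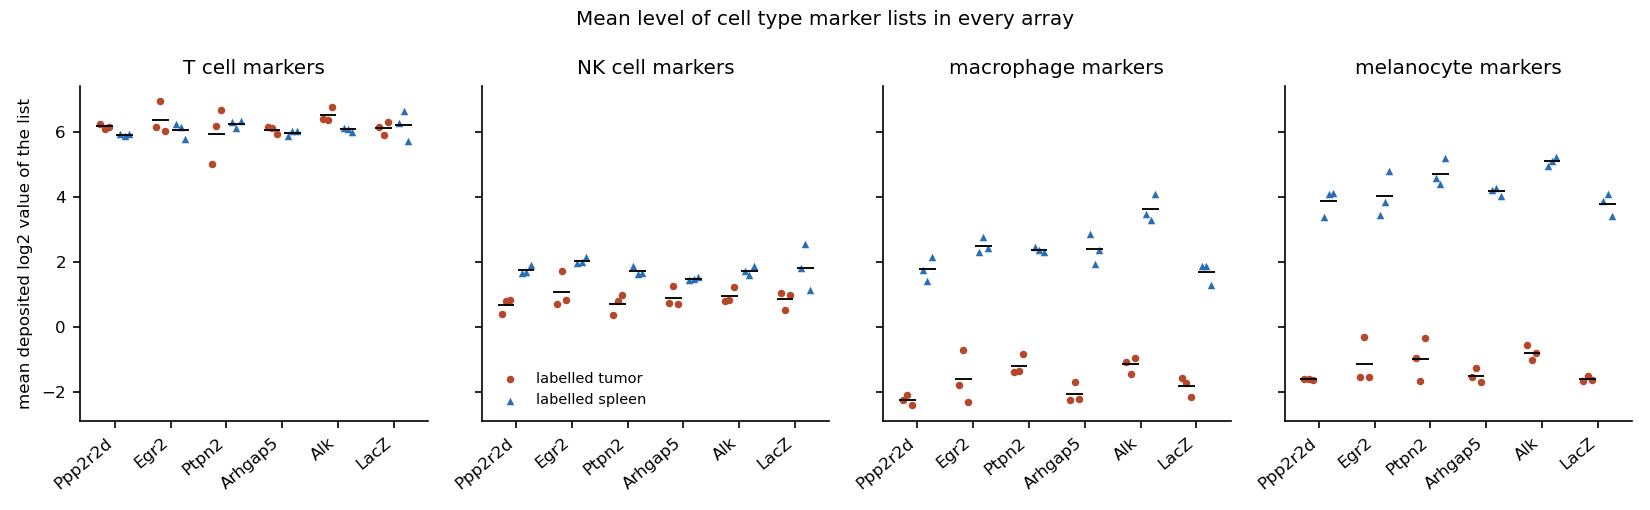
Mean deposited log2 value of 4 cell type marker lists in every array, by transduction, with arrays labelled tumor (circles) left of those labelled spleen (triangles) and bars at the group mean of 3. Macrophage and melanocyte markers are low in every array labelled tumor and high in every array labelled spleen, whereas T cell markers overlap between the labels.

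Klrg1, Klrk1, Klrc1, Klra5 and Styk1 stood lower in arrays labelled tumor than in arrays labelled spleen in most transductions, and Klrd1 and Klra7 did not follow them. Klrb1a, dim in most arrays, had lower means with the tumor label except under Ptpn2 (0.70), with overlapping arrays in LacZ and Alk. Klrg1 was dim in arrays labelled tumor outside Ptpn2. In LacZ cells 3 of the 5 genes not picked by their values, Klrg1, Klrk1 and Klrc1, were called at a limma adjusted p under 0.05, all lower in arrays labelled tumor, where 25.2% of all genes were called and 18.9% were called lower. The 5 genes differed by -1.27 for Klrg1, -2.75 for Klrk1, -2.48 for Klrc1, -0.31 for Klrd1 and -0.15 for Klra7. The median difference over all genes was -0.48. Quantile normalization moved the median of all genes to 0.05, and the differences were then -1.21 for Klrg1, -2.12 for Klrk1 and -1.82 for Klrc1, each still called (adjusted p at most 0.00189), with -3.76 for Klra5 and -1.25 for Styk1. Within the hairpins the 5 tested genes gave 14 calls of 25, all lower: 3 of 5 for Ppp2r2d (22.6% of all genes called, 14.5% lower), 3 of 5 for Egr2 (26.4% called, 15.9% lower), 2 of 5 for Ptpn2 (49.2% called, 25.1% lower), 3 of 5 for Arhgap5 (32.3% called, 21.6% lower) and 3 of 5 for Alk (53.2% called, 20% lower). For Ptpn2 and Alk the 2 of 5 and 3 of 5 are near the share of all genes called in either direction (49.2% and 53.2%). The shares called lower, the direction of these calls, were 25.1% and 20%.

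**Figure D2:**
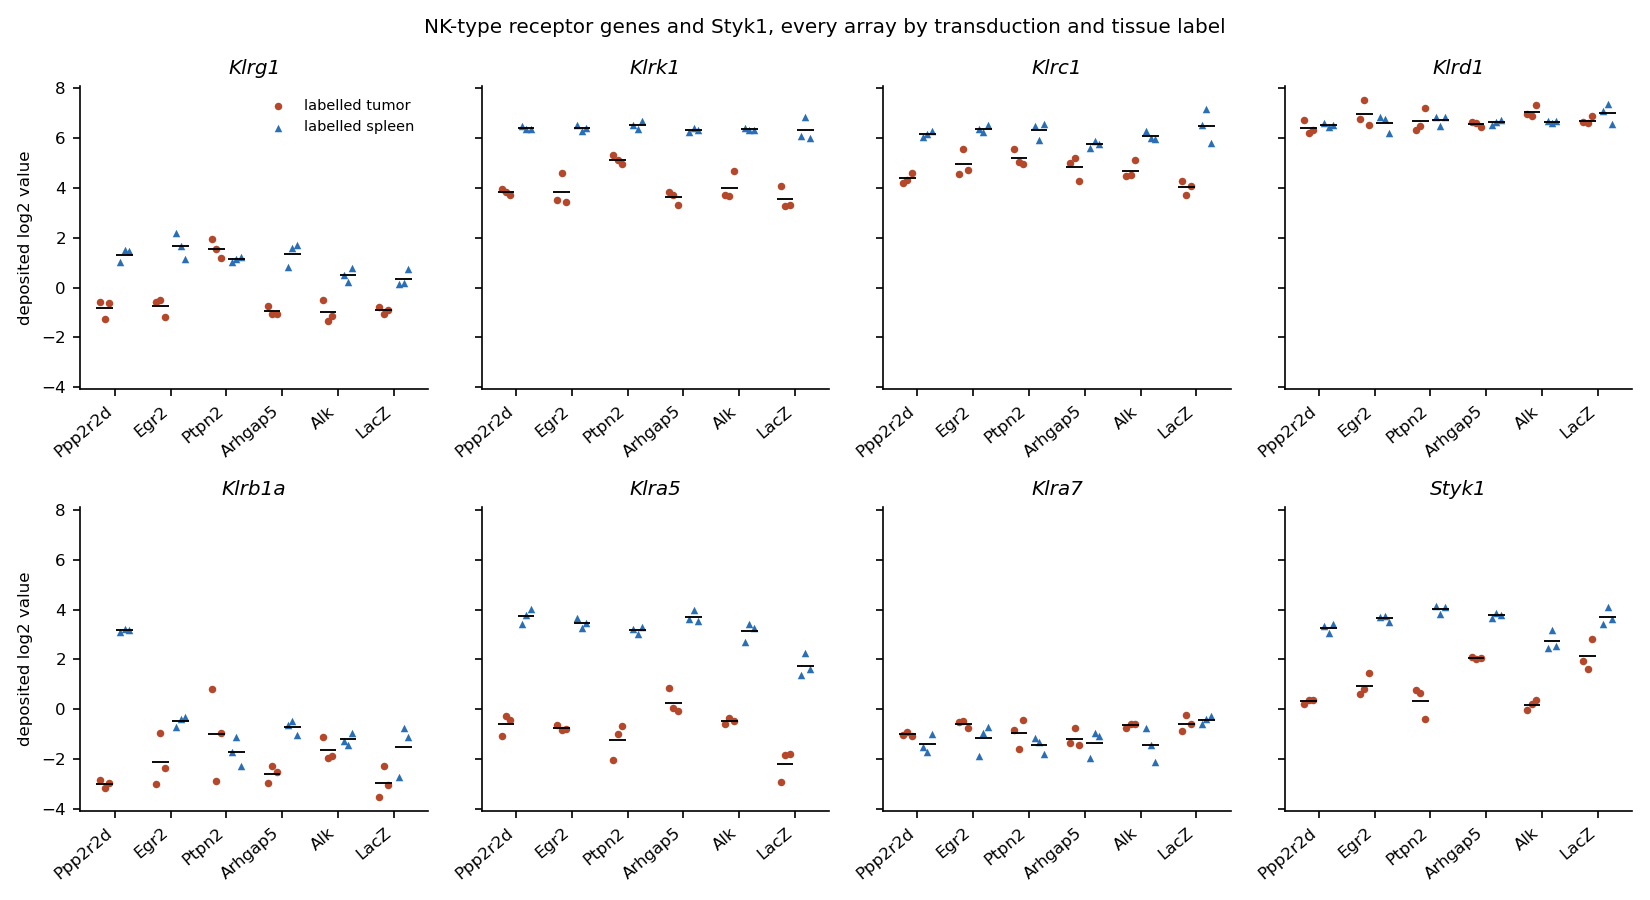
Deposited log2 value of the 8 measured genes in every array, by transduction, with arrays labelled tumor (circles) left of those labelled spleen (triangles) and bars at the group mean of 3. Klrk1, Klrc1, Klra5 and Styk1 lie lower in arrays labelled tumor in all 6 transductions, Klrg1 in all but Ptpn2, and Klrb1a reaches 3.10 to 3.21 in Ppp2r2d arrays labelled spleen.

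Klrk1 encodes NKG2D, the activating receptor for stress-induced ligands of the MHC class I type, which signals through Hcst. It read 4.10, 3.28 and 3.33 in LacZ arrays labelled tumor, against 6.10, 6.85 and 6.00 in LacZ arrays labelled spleen. The difference of -2.75 ± 0.29 (SE, n = 3 each) was called at an adjusted p of 7.85e-09. Under every hairpin Klrk1 was also lower with the tumor label, by -2.70 for Arhgap5, -2.59 for Ppp2r2d, -2.57 for Egr2, -2.35 for Alk and -1.41 for Ptpn2, with adjusted p of at most 0.000289, and no array labelled tumor reached one labelled spleen. The 18 arrays labelled spleen all lay between 6.00 and 6.85, and no hairpin was called against LacZ there: the 5 differences ranged from 0.01 to 0.23.

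Under the Ptpn2 hairpin Klrk1 stood apart in arrays labelled tumor. It read 5.32, 5.11 and 4.96 in Ptpn2 arrays labelled tumor, against 4.10, 3.28 and 3.33 in LacZ arrays with that label. All 3 Ptpn2 arrays lay above all 15 other arrays labelled tumor, whose highest value was 4.67 in Alk array 3. Against LacZ the difference was 1.56 ± 0.29 (adjusted p = 0.00315), and without Ptpn2 array 1 it was 1.47 (adjusted p = 0.0291). A fit on only these 6 arrays did not call it (adjusted p = 0.745). The fall with the tumor label was smaller under Ptpn2 than under LacZ by 1.33 ± 0.41 (interaction, adjusted p = 0.031, where 17.3% of all genes were called and 15.1% called higher), a call that was lost without Ptpn2 array 1 (adjusted p = 0.0621) and in a fit on only the 12 arrays compared (adjusted p = 0.206).

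Klrc1 encodes NKG2A, an inhibitory receptor that pairs with Klrd1 (CD94) and binds the nonclassical MHC molecule Qa-1. It read 4.29, 3.72 and 4.07 in LacZ arrays labelled tumor, against 6.53, 7.18 and 5.83 in LacZ arrays labelled spleen, a difference of -2.48 ± 0.30 (adjusted p = 1.41e-07). The gene was lower with the tumor label under each hairpin too, by -1.78 for Ppp2r2d, -1.42 for Egr2, -1.38 for Alk, -1.14 for Ptpn2 and -0.93 for Arhgap5, and each was called (adjusted p at most 0.0178). Leaving out Arhgap5 array 3 labelled tumor or array 2 labelled spleen ended the Arhgap5 call, at -0.66 and -0.86. The second Klrc1 probe set showed the same fall in all 6 transductions, between -2.60 and -1.88, each called (of all probe sets, 22.8% were called for LacZ, 22.8% for Ppp2r2d, 25.5% for Egr2, 46.8% for Ptpn2, 31% for Arhgap5 and 55.2% for Alk).

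The size of the Klrc1 fall was read differently by its probe sets. On the main set the fall was smaller than in LacZ by 1.34 ± 0.43 under Ptpn2 (adjusted p = 0.0362) and by 1.55 ± 0.43 under Arhgap5 (adjusted p = 0.0446, where 2.82% of all genes were called and 2% called higher). On the second set these differences were -0.37 and 0.29, with adjusted p of 0.606 and 0.748, and in fits on only the 12 arrays compared neither call on the main set held (adjusted p = 0.213 and 0.141). No hairpin was called against LacZ for Klrc1 under either label. The nearest was Ptpn2 in arrays labelled tumor, with 5.56, 5.05 and 4.98 against 4.29, 3.72 and 4.07 in LacZ, 1.17 ± 0.30 higher (adjusted p = 0.059). The cause of the disagreement between the sets was not tested.

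Klrd1 encodes CD94, the partner that carries Klrc1 to the cell surface, and it did not follow its partner. It read 6.65, 6.60 and 6.88 in LacZ arrays labelled tumor, against 7.10, 7.37 and 6.58 in LacZ arrays labelled spleen. The difference was -0.31 (95% interval -0.84 to 0.23, adjusted p = 0.392). Over all 36 arrays Klrd1 lay between 6.20 and 7.55, and in none of the 21 comparisons was it called. The label differences under the hairpins ran from -0.11 for Ppp2r2d to 0.39 for Alk, and the Alk interval ran up to 0.92, so it includes a rise of that size. The sign of the LacZ difference also depended on scaling: after quantile normalization it was 0.23.

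The promoters of Klrk1, Klrc1 and Klrb1a are shown because these genes have their highest levels in arrays labelled spleen and because each window holds the RUNX core. The windows run from 250 bases before to 50 bases after the annotated start (RefSeq, GRCm38.p6, minus strand, printed 5′ to 3′ along the gene). They are chr6:129623815-129624114 for Klrk1, chr6:129678924-129679223 for Klrc1 and chr6:128622885-128623184 for Klrb1a. Capitals mark the RUNX core TGTGGT, written ACCACA where it lies on the other strand, and in Klrk1 also a match to the AP-1 motif TGANTCA.
Klrk1: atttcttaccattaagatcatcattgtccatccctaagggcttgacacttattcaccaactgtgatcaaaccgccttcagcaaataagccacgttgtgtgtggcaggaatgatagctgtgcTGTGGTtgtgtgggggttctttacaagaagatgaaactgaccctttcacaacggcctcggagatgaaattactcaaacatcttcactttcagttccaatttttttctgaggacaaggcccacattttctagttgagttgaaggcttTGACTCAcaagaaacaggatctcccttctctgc
Klrc1: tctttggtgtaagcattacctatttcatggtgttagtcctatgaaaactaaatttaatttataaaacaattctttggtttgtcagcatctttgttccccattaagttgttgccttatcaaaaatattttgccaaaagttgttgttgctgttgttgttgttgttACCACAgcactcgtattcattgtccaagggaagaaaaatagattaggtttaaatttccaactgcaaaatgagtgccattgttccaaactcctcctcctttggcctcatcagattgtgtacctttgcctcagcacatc
Klrb1a: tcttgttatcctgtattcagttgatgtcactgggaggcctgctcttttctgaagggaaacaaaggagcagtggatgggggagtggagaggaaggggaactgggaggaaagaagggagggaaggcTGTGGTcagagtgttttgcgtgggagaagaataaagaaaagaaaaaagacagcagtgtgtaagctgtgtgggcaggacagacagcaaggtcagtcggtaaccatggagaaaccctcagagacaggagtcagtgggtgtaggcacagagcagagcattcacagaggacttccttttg
The RUNX core begins 129 bases before the start in Klrk1, 87 in Klrc1 and 126 in Klrb1a. It was found on either strand in 3 of the 7 windows of the set, and in 16.8% of all 32851 promoters. TGANTCA was found in 1 of the 7 windows and in 7.81% of all promoters. The T-box motif AGGTGTGA was in none of the 7 and in 1.28% of all. The STAT motif TTCNNNGAA and the TCF motif CTTTGAT, at 8.3% and 3.73% of all promoters, were each found in 1 window, both of them in Klra7. No motif overlapped another in these windows, and a match is a description of the letters, not of binding. Of the 9 genes 6 had a window in the table, Klra7 with 2 starts, and Klrg1, Klrd1 and Styk1 are named only.

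Klrg1 encodes an inhibitory receptor for cadherins and is a textbook marker of short-lived, terminally differentiated effector CD8 T cells. It read -0.79, -1.05 and -0.89 in LacZ arrays labelled tumor, against 0.16, 0.19 and 0.73 in LacZ arrays labelled spleen, a difference of -1.27 ± 0.30 (adjusted p = 0.00156, and 0.0853 in a fit on only these 6 arrays). Under 4 hairpins the gap was -2.42 for Egr2, -2.32 for Arhgap5, -2.15 for Ppp2r2d and -1.49 for Alk, all called, with no overlap between the labels. In all 15 arrays labelled tumor outside Ptpn2, Klrg1 stayed between -1.33 and -0.49.

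Under the Ptpn2 hairpin that gap was not seen. Klrg1 read 1.96, 1.56 and 1.19 in Ptpn2 arrays labelled tumor, against 1.01, 1.16 and 1.23 in Ptpn2 arrays labelled spleen, and the 2 sets of arrays overlapped. The difference of 0.44 was not called (95% interval -0.17 to 1.04, adjusted p = 0.21). Against LacZ arrays labelled tumor the Ptpn2 arrays were higher by 2.48 ± 0.30 (adjusted p = 4.48e-06), one of 117 genes called higher in that comparison (0.643% of all genes; 0.764% called in either direction). Without Ptpn2 array 1 the rise was 2.29 (adjusted p = 0.000125), and a fit on only the 6 arrays compared gave an adjusted p of 0.272. The other 4 hairpins differed from LacZ in arrays labelled tumor by -0.08 to 0.17 and were not called. The interaction, the Ptpn2 label difference minus the LacZ label difference, was 1.71 ± 0.42 (adjusted p = 0.0149) and 1.51 without array 1 (adjusted p = 0.0378). It was not called with array weights (1.57, adjusted p = 0.0775) or in a fit on only the 12 arrays compared (adjusted p = 0.201).

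In arrays labelled spleen Klrg1 was higher under 3 hairpins than under LacZ. It read 2.19, 1.68 and 1.16 under Egr2, 0.81, 1.60 and 1.70 under Arhgap5 and 1.03, 1.50 and 1.45 under Ppp2r2d, against 0.16, 0.19 and 0.73 under LacZ. The differences were 1.32, 1.01 and 0.97, with adjusted p of 0.0156, 0.0321 and 0.0297, in comparisons that share the LacZ arrays and called 3.23%, 8.89% and 12.8% of all genes (1.59%, 3.03% and 6.15% higher). After quantile normalization the 3 differences were 0.98, 0.76 and 0.57 and none was called (adjusted p 0.0633, 0.12 and 0.241). Ptpn2 arrays labelled spleen, at 1.01 to 1.23, also lay above every LacZ array with that label without a call (0.77, adjusted p = 0.0919), in a comparison that called 9.58% of all genes. Alk arrays, at 0.51, 0.21 and 0.78, overlapped with LacZ. In the same comparisons 2 of 8 macrophage markers were called higher under Egr2, 2 under Arhgap5 and 0 under Ppp2r2d, and 0 of 5 melanocyte markers under each, by limma. Their part in the Klrg1 values was not tested.

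**Figure D3:**
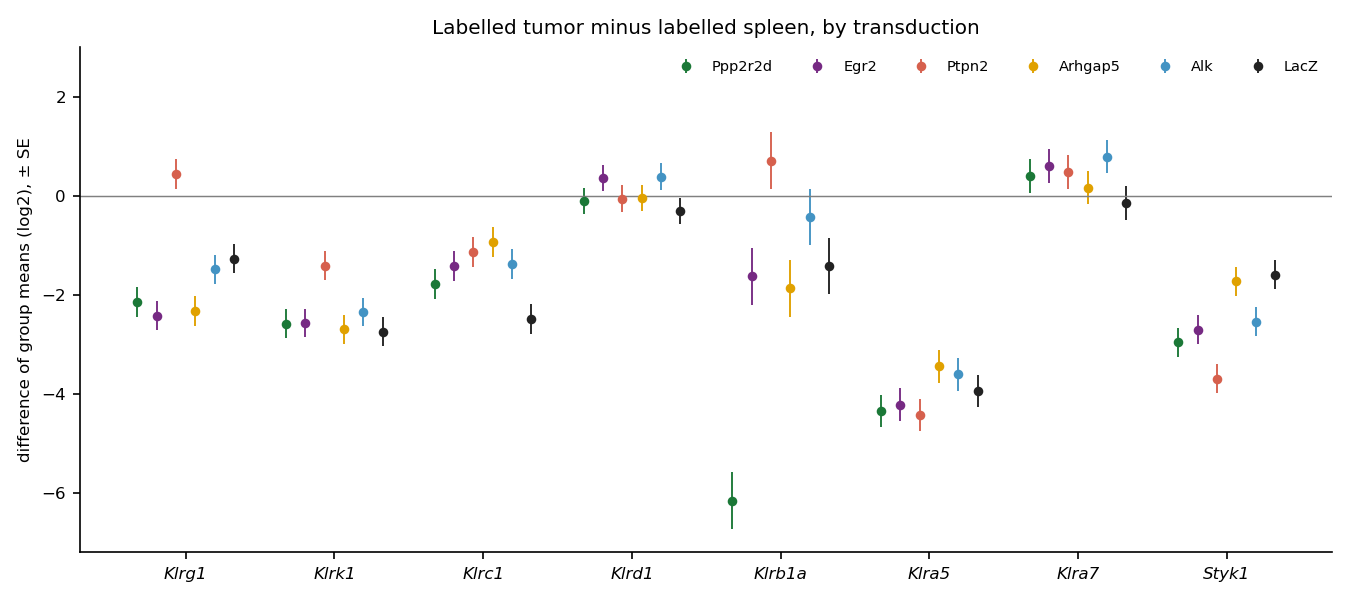
Difference between the group means labelled tumor and labelled spleen (log2, points) with its SE (bars) for the 8 measured genes in each transduction. The Ptpn2 point of Klrg1 lies at 0.44 while the other transductions lie between -2.42 and -1.27, and the Ppp2r2d point of Klrb1a lies at -6.16.

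Klra5 encodes Ly49E, an inhibitory member of the Ly49 receptor family. It read -2.94, -1.84 and -1.81 in LacZ arrays labelled tumor, against 1.39, 2.25 and 1.60 in LacZ arrays labelled spleen. The difference was -3.94 ± 0.33 (SE), with a dim level in the arrays labelled tumor. Within the hairpins it was -4.43 for Ptpn2, -4.35 for Ppp2r2d, -4.22 for Egr2, -3.60 for Alk and -3.44 for Arhgap5. In all 6 transductions every array labelled tumor lay below every array labelled spleen.

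Within both labels the LacZ mean of Klra5 was the lowest of the 6 transductions, part of the values it had been picked for. In arrays labelled spleen the 15 hairpin arrays lay between 2.69 and 4.02, against 1.39 to 2.25 in the 3 LacZ arrays. Every hairpin array thus exceeded every LacZ array, with mean differences of 2.00 for Ppp2r2d, 1.96 for Arhgap5, 1.71 for Egr2, 1.43 for Ptpn2 and 1.38 for Alk. In arrays labelled tumor the 15 hairpin arrays lay between -2.06 and 0.83, against -2.94 to -1.81 in LacZ. Arhgap5 was highest there at 0.83, 0.04 and -0.09, a mean 2.46 above LacZ, and Ptpn2 lowest at -2.06, -1.02 and -0.69, with an overlap with LacZ. All 10 differences rest on the same 6 LacZ arrays. After quantile normalization the Ptpn2 difference in arrays labelled tumor was 0.32 in place of 0.94, and the 5 differences in arrays labelled spleen were 1.12 to 1.77.

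Klra7 encodes Ly49G, an inhibitory receptor for classical MHC class I, and Klra3 encodes Ly49C, of the same kind. Klra7 was dim everywhere: its main set lay between -1.61 and -0.24 in arrays labelled tumor and between -2.12 and -0.29 in arrays labelled spleen. In LacZ cells it read -0.89, -0.24 and -0.61 with the tumor label, against -0.60, -0.41 and -0.29 with the spleen label, a difference of -0.15 that was not called (95% interval -0.84 to 0.55, adjusted p = 0.757). In arrays labelled spleen all 15 hairpin arrays, at most -0.71, lay below the 3 LacZ arrays, by -1.01 for Alk to -0.75 for Egr2, and none was called (adjusted p 0.0528 to 0.202). The second set read -3.66, -2.55 and -2.79 in LacZ arrays labelled tumor, against -2.46, -1.02 and -1.89 in LacZ arrays labelled spleen. That difference of -1.21 was called (adjusted p = 0.0303), as were those of Ptpn2 at -1.44 and Arhgap5 at -1.70. In arrays labelled spleen the second set was higher under Arhgap5 than under LacZ by 1.32 (adjusted p = 0.0365, where 10.6% of all probe sets were called), the opposite direction to the main set.

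The set shared by Klra9 and Klra3 was well above the array median and cannot be given to either gene. It read 3.79, 2.58 and 3.87 in LacZ arrays labelled tumor, against 4.47, 4.70 and 3.65 in LacZ arrays labelled spleen, a difference of -0.86 (adjusted p = 0.0389) with overlapping arrays. The differences were -1.98 for Ptpn2, -1.25 for Ppp2r2d and -1.03 for Egr2, all called, and -0.73 for Arhgap5 and -0.16 for Alk, which were not (adjusted p = 0.068 and 0.665). In arrays labelled spleen it was called higher under Ptpn2, with 5.43, 5.02 and 5.60 against 4.47, 4.70 and 3.65 in LacZ, a difference of 1.08 (adjusted p = 0.0233, where 10.9% of all probe sets were called).

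**Figure D4:**
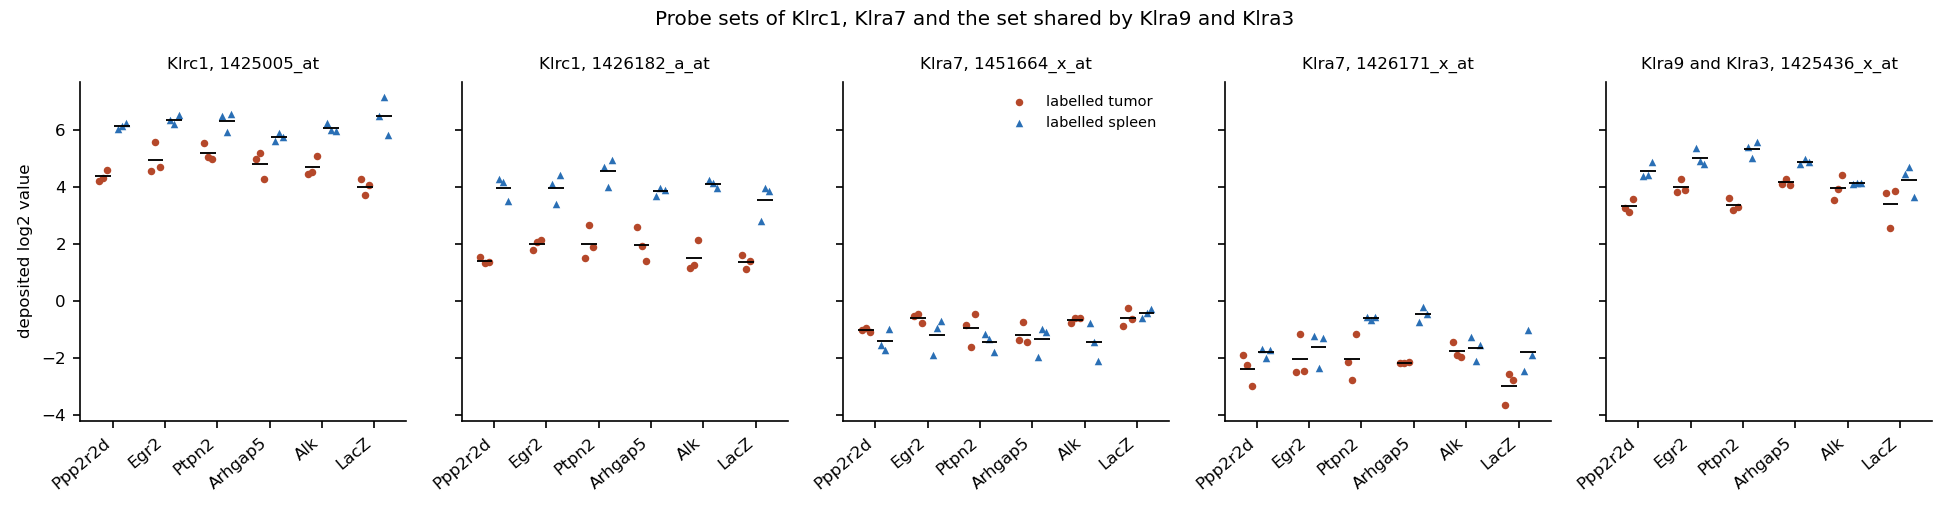
Deposited log2 value in every array of both Klrc1 probe sets, both Klra7 probe sets and the set shared by Klra9 and Klra3, with arrays labelled tumor (circles) left of those labelled spleen (triangles) and bars at the group mean of 3. Both Klrc1 sets lie lower in arrays labelled tumor, while the Klra7 sets are dim and differ from each other in arrays labelled spleen.

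The Ly49 genes are close relatives, and the windows around the annotated starts of some of them share runs of bases. A run of 23 bases is shared by the promoter windows of Klra5, Klra7 (its second listed start) and Klra3. It is shown in capitals with up to 20 bases on each side. Probe sets of such genes may take up RNA of more than 1 of them, which a run in these windows does not measure. The stretches are chr6:129913237-129913299 for Klra5, chr6:130233334-130233396 for Klra7 and chr6:130337577-130337630 for Klra3 (RefSeq, GRCm38.p6, minus strand, 5′ to 3′ along the gene).
Klra5: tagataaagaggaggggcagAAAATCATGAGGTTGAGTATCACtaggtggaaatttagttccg
Klra7: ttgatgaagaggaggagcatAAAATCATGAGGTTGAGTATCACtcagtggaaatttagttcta
Klra3: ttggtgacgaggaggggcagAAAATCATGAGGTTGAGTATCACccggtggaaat
The run starts 55 bases before the annotated start in Klra5 and 54 before it in Klra7, and it was found in 4 of the 32851 promoters, the fourth being that of Klra6. Klra5 and Klra3 also share a run of 38 bases. In Klra3 the run begins after the annotated start, 16 bases on. How much each Ly49 probe set reads of its relatives was not tested.

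Klrb1a encodes NKR-P1A, a C-type lectin-like receptor of the family that includes NK1.1. It had been picked for its level under the Ppp2r2d hairpin. In Ppp2r2d arrays labelled spleen it read 3.10, 3.21 and 3.17, against -2.71, -0.75 and -1.13 in LacZ arrays labelled spleen, a mean 4.69 higher. In Ppp2r2d arrays labelled tumor it read -2.86, -3.15 and -2.97, which leaves a label difference of -6.16. The next highest of the 36 arrays was Ptpn2 array 1 labelled tumor, the one that stood apart, at 0.82, and every other array lay at or below -0.30. The rise in Ppp2r2d arrays labelled spleen was 4.84 after quantile normalization.

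Klrb1a was above the 40th percentile of the array in 9 of 36 arrays, the 3 Ppp2r2d arrays labelled spleen among them. Its label difference in LacZ cells was -1.42 ± 0.57 (SE). Ptpn2 arrays labelled tumor read 0.82, -2.90 and -0.96, against -1.73, -1.12 and -2.30 in Ptpn2 arrays labelled spleen, and the difference of 0.70 became -0.21 without array 1. Its family relatives Klrb1b and Klrb1f were the 2 of 10 other measured killer lectin receptors called in Ppp2r2d arrays labelled spleen, both higher than in LacZ. Klrb1b averaged 1.41 ± 0.60 against -0.52 ± 0.83 (SD, n = 3 each), 1.93 higher (adjusted p = 0.00127), and Klrb1f averaged 2.60 ± 0.47 against 1.24 ± 0.62, 1.36 higher (adjusted p = 0.00357). In the same comparison 12.8% of all genes were called.

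Styk1 encodes a receptor-like kinase with a short extracellular part and no known ligand. It read 1.93, 1.62 and 2.82 in LacZ arrays labelled tumor, against 3.44, 4.08 and 3.63 in LacZ arrays labelled spleen, a difference of -1.59 ± 0.30 (SE). Within the hairpins the label difference was -3.69 for Ptpn2, -2.96 for Ppp2r2d, -2.70 for Egr2, -2.54 for Alk and -1.73 for Arhgap5. No array labelled tumor reached the lowest array labelled spleen of its own transduction.

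In arrays labelled tumor Styk1 differed among the transductions, the values it had been picked for. It read -0.05, 0.22 and 0.38 under Alk, 0.21, 0.35 and 0.38 under Ppp2r2d, 0.78, 0.66 and -0.41 under Ptpn2 and 0.59, 0.79 and 1.45 under Egr2, against 1.93, 1.62 and 2.82 under LacZ. These 4 hairpins lay wholly below LacZ, by -1.94, -1.81, -1.78 and -1.18. Arhgap5, at 2.11, 2.00 and 2.05, overlapped with LacZ and differed from it by -0.07, or by -0.68 with array weights. Without Ptpn2 array 3, whose lowest value was raised, the Ptpn2 difference was -1.40. In arrays labelled spleen only Alk and Ppp2r2d lay wholly below LacZ, Alk at 2.46, 3.18 and 2.54 by -0.99 and Ppp2r2d at 3.33, 3.07 and 3.42 by -0.44, while the other hairpins differed by -0.07 to 0.32. Beside the Alk value, 7 of 8 macrophage markers (median difference 2.14) and 3 of 5 melanocyte markers (median 1.36) were called higher in Alk than in LacZ arrays labelled spleen, and their part was not tested.

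The measured genes on either side of Styk1 were looked at against LacZ and between the labels. On one side lie Klra2, Gm6600 and Gm6590 and on the other Ybx3, 5430401F13Rik and Tas2r105, in the gene order of GRCm38.p6. None of the 6 was called for any hairpin against LacZ in arrays labelled tumor, in comparisons that called between 0.0055% and 0.995% of all genes. Ybx3, a cold shock domain protein and the only bright neighbour, averaged 6.27, 6.64, 5.04, 6.38 and 6.60 under Ppp2r2d, Egr2, Ptpn2, Arhgap5 and Alk in arrays labelled tumor, against 6.33 under LacZ, and the Ptpn2 mean is pulled down by array 1 at 1.85. Klra2, a Ly49 relative, was dim, with group means from -3.62 to -0.07, and was called higher under Arhgap5 than under LacZ in arrays labelled spleen, by 2.12 (adjusted p = 0.0212). The gene 5430401F13Rik had group means from -1.16 to 2.19 and was called lower under Ppp2r2d than under LacZ in arrays labelled spleen, by -1.65 (adjusted p = 0.0426). Gm6590, Gm6600 and Tas2r105 had group means between -4.01 and -1.96. These 3 and Klra2 averaged at most -3.37 in LacZ arrays labelled tumor, near the floor, so a fall there could not show. Between the labels none of the 6 was called in LacZ cells. With the tumor label Klra2 was called lower under Egr2 (-1.81) and Arhgap5 (-2.81), and Ybx3 under Ptpn2 (-1.86, array 1 included). The gene 5430401F13Rik was called higher under Ptpn2 (1.90), Arhgap5 (1.98) and Alk (2.73). Gm6590 was called higher under Alk, and Gm6600 and Tas2r105 under Ptpn2 and Alk. These 4 hairpin comparisons called 26.4% to 53.2% of all genes. In Alk arrays labelled tumor Gm6590 read -1.80, -2.36 and -2.27, where the lowest value of each array was -1.88, -2.37 and -2.31. With the spleen label the lowest values of the Alk arrays were -4.05, -4.10 and -3.96. The Ptpn2 means include array 3, whose lowest value was raised. The part of this floor in the calls of Gm6590, Gm6600 and Tas2r105 was not tested.

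**Figure D5:**
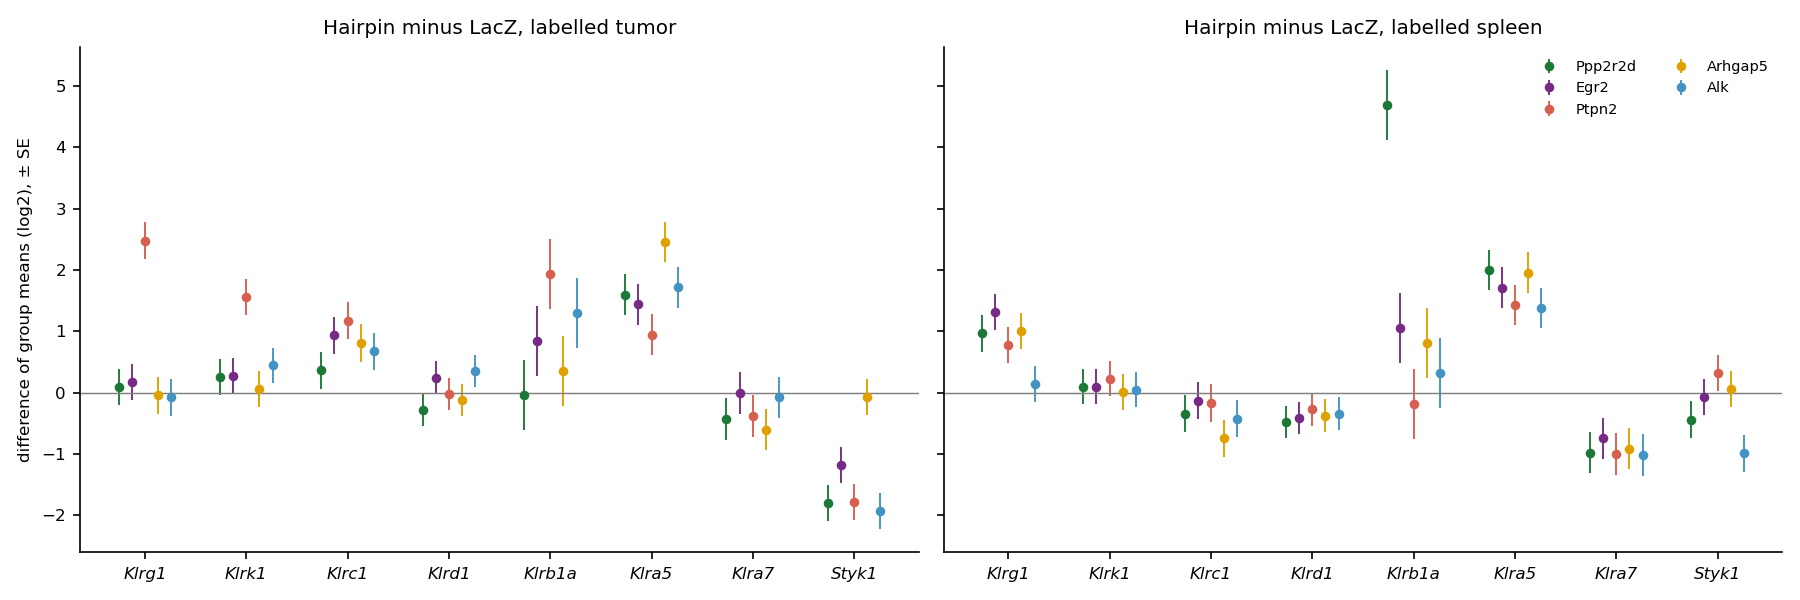
Difference between the hairpin and LacZ group means (log2, points) with its SE (bars) for the 8 measured genes, in arrays labelled tumor (left panel) and labelled spleen (right panel). Ptpn2 is highest for Klrg1 and Klrk1 in arrays labelled tumor, all hairpins but Arhgap5 lie below -1 for Styk1 there, and Ppp2r2d lies at 4.69 for Klrb1a in arrays labelled spleen.

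Set against LacZ, the 5 tested genes gave 5 calls of 50, all higher under the hairpin. These were the Klrg1 and Klrk1 values under Ptpn2 with the tumor label and the 3 Klrg1 values with the spleen label. Of all genes, 0.764% were called under Ptpn2 with the tumor label. With the spleen label the shares were 3.23% for Egr2, 8.89% for Arhgap5 and 12.8% for Ppp2r2d. For the other hairpins in arrays labelled tumor no tested gene was called, where 0.995% of all genes were called for Ppp2r2d, 0.0275% for Egr2, 0.368% for Arhgap5 and 0.0055% for Alk. Alk in arrays labelled spleen gave no call either (7.4% of all genes). For the difference of label differences there were 4 calls of 25, all higher. They were 3 under Ptpn2 (17.3% of all genes called, 15.1% higher) and 1 under Arhgap5 (2.82% called, 2% higher). There were none under Ppp2r2d (0.786%), Egr2 (0%) or Alk (25.4%).

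Of the other killer lectin receptors 10 of 19 listed were measured. In LacZ cells 3 were called lower and 1 higher with the tumor label, where 25.2% of all genes were called and 18.9% called lower. Their median was -0.88 against -0.48 over all genes. Klre1, which forms inhibitory or activating pairs with Klri receptors in the mouse, averaged 2.75 ± 0.38 in LacZ arrays labelled tumor against 5.29 ± 0.53 in LacZ arrays labelled spleen (SD, n = 3 each), a fall of -2.54 (adjusted p = 4.1e-07). Klrc2, the activating NKG2C counterpart of Klrc1, was lower by -1.78 (adjusted p = 0.000144) and Klra17 by -1.72 (adjusted p = 0.0153). Klra8, the Ly49H receptor for a viral ligand, was higher by 1.74 (adjusted p = 0.00249) at dim values, -0.42 on average in arrays labelled tumor and -2.16 in those labelled spleen.

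The adaptors of these receptors moved in opposite directions. Hcst, the DAP10 adaptor of Klrk1, averaged 4.98 ± 0.38 in LacZ arrays labelled tumor against 3.32 ± 0.27 in those labelled spleen, 1.66 higher (adjusted p = 2.69e-06). Tyrobp, the DAP12 adaptor that macrophages share, averaged 1.87 ± 0.69 against 3.58 ± 0.53, lower by -1.71 (adjusted p = 0.00024), and Fcer1g, also shared with macrophages, was lower by -5.24 (adjusted p = 5.79e-13). Of the 18 measured adaptor and signalling genes, 2 were called higher and 5 lower in LacZ cells, with a median of -0.02 against -0.48 over all genes, of which 25.2% were called and 18.9% called lower. Klrk1 and Hcst thus moved apart between the labels, Klrk1 lower and Hcst higher with the tumor label.

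In this comparison, which called 25.2% of all genes, the medians were -0.33 for ligands, -0.78 for other NK-type receptors and -0.68 for transcription factors, against -0.48 over all genes. Among 13 measured ligand genes 3 were called higher and none lower with the tumor label in LacZ cells: Clec2i, a ligand of NKR-P1 receptors, by 1.75 (adjusted p = 3.65e-06), H60c, a ligand of NKG2D, by 1.25 (adjusted p = 0.00663), and Cdh1, the E-cadherin ligand of Klrg1, by 1.24 (adjusted p = 0.0321). Of 15 NK-type receptors outside the lectin family 2 were called higher and 7 lower, led by Cd244a, a SLAM family receptor, at -4.40 (adjusted p = 8.09e-10), and Fcgr3, the Fc receptor CD16 that macrophages also carry, at -2.57 (adjusted p = 4.36e-09), while Cd226, an activating receptor for nectin-like ligands, was higher by 1.61 (adjusted p = 0.000832). Of 15 transcription factors of NK and effector CD8 T cells 2 were called higher and 6 lower, the lower ones led by Zeb2 at -5.02, Prdm1 at -3.95, Tox2 at -3.54 and Ikzf2 at -2.49 (adjusted p at most 8.12e-08).

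In Ptpn2 against LacZ arrays labelled tumor, where 0.764% of all genes were called, the calls in the other lists were 0 of 10 other lectin receptors, 0 of 18 adaptor and signalling genes, 0 of 13 ligands, 0 of 15 other NK-type receptors and 0 of 15 transcription factors, by limma at an adjusted p under 0.05. Their medians were 0.47, 0.07, 0.04, 0.28 and 0.40, against 0.24 over all genes. None of 8 macrophage, 5 melanocyte, 5 NK or 9 T cell markers was called there either. For the difference of label differences between Ptpn2 and LacZ, where 17.3% of all genes were called, 3 genes of these lists were called in the direction of Klrg1 and Klrk1: Clec2g at 2.46 (adjusted p = 0.0256), Cdh4 at 2.24 (adjusted p = 0.0271) and Klra1 at 2.05 (adjusted p = 0.0371). Called the opposite way were Klra8 at -1.92 (adjusted p = 0.034), Tyrobp at -1.72 (adjusted p = 0.0227) and Lair1 at -1.26 (adjusted p = 0.0285). Among dim neighbours of Styk1, Tas2r105 was called there too, at 2.17 (adjusted p = 0.0414). Gm6600 at 2.22, Gm6590 at 2.07 and Klra2 at -0.09 were not called. The contrast includes LacZ array 2 labelled spleen and Ptpn2 array 3 labelled tumor, whose lowest values were raised. Their part in the values of these lists was not tested.

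NK cell markers were measured for 5 of 7 listed genes, and their mean per array lay between 0.36 and 1.71 with the tumor label and between 1.13 and 2.56 with the spleen label. The defining NK gene Ncr1, which encodes NKp46, was near the floor, at -3.38, -2.50 and -3.16 in LacZ arrays labelled tumor and -2.95, -0.97 and -3.54 in LacZ arrays labelled spleen, where the value of -0.97 is from an array with a raised lowest value. Of the other 4 NK markers in LacZ cells, Klre1 and Fcer1g were called lower with the tumor label, Klra8 was called higher, and Eomes, a T-box factor of NK and memory CD8 T cells, was called higher by 1.64 (adjusted p = 1.25e-05). The part of NK cells in the receptor differences was not tested. Of the 9 T cell markers only Cd8a was called in LacZ cells, lower by -0.63 (adjusted p = 0.0477).

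Within each label the genes did not move as 1 group. Over the 12 group means with the mean of each label taken off, Klrg1 and Klrk1 correlated at r = 0.87, Klrd1 and Klra7 at 0.74 and Klrk1 and Klrc1 at 0.59. Klrd1 correlated with Klrk1 at 0.02 and with Klrg1 at -0.29. The values of Klrk1 with Styk1 (-0.49) and Klra5 with Klra7 (-0.74) include genes picked for such within-label differences. Ptpn2 arrays labelled tumor averaged 1.57 for Klrg1 and 5.13 for Klrk1. The other groups with that label averaged -0.99 to -0.74 and 3.57 to 4.02, so 1 group weighs heavily in the r of 0.87. Over the whole array the genes most like Klrg1 in these centred means were Ptprj (r = 0.94), Lamc1 and Prss16, those most like Klrk1 were Cd48 (r = 0.92), Cinp and Bard1, and those most like Klrc1 were Ndufa13 (r = 0.89), Mrpl52 and Cox4i1. Cnot4 and Nkg7 (r = 0.94 each) and Atp5h were most like Klrd1, Spint1 (r = 0.93), Ncald and Ceacam1 most like Klrb1a, Vamp2 (r = 0.88), Zfp995 and Atp2b1 most like Klra5, and Tubgcp5 (r = 0.91), Tmem86b and Klhl17 most like Klra7. For Styk1 the closest was its chromosomal relative Klre1 at a weaker r of 0.75, then Drc1 and Tmem163. Klrb1a averaged 3.16 in Ppp2r2d arrays labelled spleen and at most -0.48 in any other group, so 1 point weighs heavily in its list. These are descriptions over 12 points drawn from 9096 brighter genes, and the points share arrays and scaling.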

How the data were processed

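The deposited values are log2 probe set levels from Affymetrix mouse expression arrays that the authors made with RMA, per the submitters' processing notes, with version and centring not stated. The labels name Trizol extraction and a one-cycle amplification. Of 45101 probe sets, 34945 carry 1 gene symbol, 932 several and 9160 none, and 64 are controls, which were left out. Each gene was read from its brightest single-symbol set. All 36 arrays entered 1 limma fit (limma 3.58.1, R 4.3.3) with a mean for each of 12 groups and eBayes, without a replicate block, and p-values were Benjamini-Hochberg adjusted over 18193 genes. A call is an adjusted p under 0.05. The fit was also run on simulated independent normal values. These held no outlying array, raised lowest values or shift of medians, so the run could not test how such features affect the calls. The members and gene lists were chosen with earlier results of these data known. The planned LacZ label test of Klra5, Klrb1a and Styk1 was run, but its p-values are not used, because the same LacZ arrays entered their choice. Genes outside the set are named as the largest called differences of each list (up to 4), the 3 measured genes on each side of Styk1, and the 3 genes most correlated with each member over 12 group means. Alternatives were quantile and cyclic loess scaling, a filter on dim genes, other probe sets, array weights, fits on only the arrays compared, a replicate block and each array left out. The number of arrays limits the precision. Same-numbered arrays did not pair: 4 of 18 residual correlations exceeded 0.1.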

Additional observations from a re-analysis of the deposited data

Results flagged for a closer look

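In 4 results the label difference under a hairpin differed from that under LacZ by a test of the difference itself. That test called 17.3% of all genes under Ptpn2 (15.1% higher) and 2.82% under Arhgap5 (2% higher). For Klrg1 the Ptpn2 label difference exceeded the LacZ one by 1.71 (limma adjusted p = 0.0149). For Klrk1 it exceeded it by 1.33 (adjusted p = 0.031), and for Klrc1 by 1.34 (adjusted p = 0.0362). For Klrc1 the Arhgap5 label difference exceeded the LacZ one by 1.55 (adjusted p = 0.0446). Without Ptpn2 array 1 labelled tumor the Klrg1 value was 1.51 and still called (adjusted p = 0.0378), while Klrk1 at 1.24 and Klrc1 at 1.16 were not (adjusted p = 0.0621 and 0.0801). Leaving out any one of 6 arrays ended the Klrk1 call, any one of 7 the Klrc1 call under Ptpn2 and any one of 9 the Klrc1 call under Arhgap5.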

How the results depend on the processing

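Of 76 single values, 37 were unchanged under every alternative run, which for values without a test means a move of less than the spread between replicates. In LacZ cells the label calls of Klrk1 and Klrc1 held under each alternative. That of Klrg1 was lost only by limma on only the arrays compared (adjusted p = 0.0853). Klra5 and Styk1, picked by measured values, are not counted here. The 14 calls within the hairpins stayed within 1.5 times under each alternative. The 5 calls against LacZ became 8 with the filter on dim genes, 13 with array weights and 0 by limma on only the arrays compared, and 3 to 9 with 1 array left out. The 4 calls of a difference between label differences became 2 with the mean of all probe sets, 1 without the 3 arrays with a raised lowest value (added after seeing the data) and 0 by limma on only the arrays compared, and 1 to 5 with 1 array left out. The Klrc1 difference under Ptpn2 turned to -0.37 on its other probe set. The LacZ label difference of Klrd1 turned to 0.28 with cyclic loess, 0.23 with quantile normalization and 0.23 with quantile normalization and the filter, and that of Klra7 to 0.20, 0.26 and 0.26. With 1 array left out the Klra7 value ran from -0.32 to 0.0072. With the replicate block the Klrc1 difference under Arhgap5 was 1.55 and lost its call (adjusted p = 0.0562), and the block changed no other call among the values given. The causes were not tested.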
